A study of Rattus norvegicus and Mus musculus with 12 samples.

Results

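IL-1β-stimulated chondrocytes of rats and mice were compared with each other, on the inflamed state that the cells of each species had reached and not on their change from untreated cells. The comparison took the 3 libraries of the RM group (rat) and the 3 libraries of the MM group (mouse), which are 6 of the 12 RNA-seq libraries of the study. It covered the 14402 genes whose symbols were shared by the rat and mouse tables without regard to case. The cells were passage 1 articular chondrocytes of newborn Sprague–Dawley rats and C57BL/6 mice, and both groups had received 20 ng/ml IL-1β for 24 h. The RC group (rat) and the MC group (mouse), with 3 libraries each, were the corresponding chondrocytes without IL-1β and gave the difference between the species in untreated cells. The strain labels of the MM libraries read C57BL/7, C57BL/8 and C57BL/9, whereas the methods name C57BL/6 for all mice. The methods speak of independent samples without saying how many animals each held, so that the P values measure the spread between these samples.

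IL-1β is a cytokine that joint cells release and respond to in inflammation. It binds the receptor Il1r1 with its partner Il1rap, the adaptor Myd88 and the Irak kinases pass the signal to Traf6 and Map3k7, and the signal ends in NF-κB, a family of transcription factors, and in MAP kinases that act through AP-1. In cartilage, this pathway is known for inducing matrix-degrading enzymes, nitric oxide and prostaglandin E2 and for lowering the production of type II collagen and aggrecan, which give the tissue its stiffness.

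The usual readouts of IL-1β in chondrocytes are Mmp3 (stromelysin 1) and Mmp13 (collagenase 3), which cut cartilage matrix, Lcn2 (lipocalin 2), which binds bacterial iron carriers, Nos2, the inducible nitric oxide synthase, and Ptgs2 (COX-2), which makes the precursor of prostaglandins. In the mouse genome (GRCm38, GENCODE M21), Mmp3 lies on chromosome 9 from 7445822 to 7455975, Mmp13 on chromosome 9 from 7272514 to 7283331, Lcn2 on chromosome 2 from 32384633 to 32388252, Nos2 on chromosome 11 from 78920787 to 78960254 and Ptgs2 on chromosome 1 from 150100031 to 150108227. The 250 bases before the start of 4 of these genes in the rat are shown because they are the stretches in which the factors downstream of IL-1β could bind. They are RefSeq sequences of the rat assembly GRCr8, 5′ to 3′ on the strand of the gene, at chr8:12925031-12925280 (+ strand) for Mmp3, chr8:12782579-12782828 (+ strand) for Mmp13, chr3:36081781-36082030 (− strand) for Lcn2 and chr13:64713813-64714062 (+ strand) for Ptgs2. Capitals mark matches to an NF-κB motif (in Lcn2, 242 bases before the start), to the AP-1 motif TGANTCA (71 bases before the start in Mmp3 and 66 in Mmp13) or to the C/EBP motif TTGCNNAA (171 bases before the start in Mmp3, 191 in Lcn2 and 140 in Ptgs2), on either strand, and no marked matches overlap.
Mmp3: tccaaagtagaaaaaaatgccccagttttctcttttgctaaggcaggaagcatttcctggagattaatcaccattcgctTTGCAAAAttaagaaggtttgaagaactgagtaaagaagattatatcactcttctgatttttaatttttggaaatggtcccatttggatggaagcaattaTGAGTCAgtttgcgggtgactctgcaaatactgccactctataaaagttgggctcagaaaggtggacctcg
Mmp13: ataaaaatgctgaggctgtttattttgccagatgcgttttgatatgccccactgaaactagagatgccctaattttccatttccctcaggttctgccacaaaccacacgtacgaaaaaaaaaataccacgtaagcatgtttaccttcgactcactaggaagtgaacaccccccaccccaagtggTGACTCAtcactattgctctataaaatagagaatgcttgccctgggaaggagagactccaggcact
Lcn2: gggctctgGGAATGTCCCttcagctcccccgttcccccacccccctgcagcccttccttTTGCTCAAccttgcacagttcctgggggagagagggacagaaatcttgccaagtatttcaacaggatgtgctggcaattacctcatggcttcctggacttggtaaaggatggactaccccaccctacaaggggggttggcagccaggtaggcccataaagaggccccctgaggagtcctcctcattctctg
Ptgs2: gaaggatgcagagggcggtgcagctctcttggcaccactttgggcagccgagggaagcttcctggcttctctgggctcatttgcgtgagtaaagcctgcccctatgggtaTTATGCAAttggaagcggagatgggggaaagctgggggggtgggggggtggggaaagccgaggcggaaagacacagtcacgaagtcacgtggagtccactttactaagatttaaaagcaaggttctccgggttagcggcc
Of all 33469 rat promoter windows of this length, 6.325% held the NF-κB motif, 6.34% the AP-1 motif and 9.217% the C/EBP motif, and a match describes letters and not binding.

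Between 20169272 and 25903459 reads were counted on genes in each RM library, and between 17482589 and 20048322 in each MM library. Levels are given as rescaled FPKM: the FPKM deposited by the authors (reads per kilobase of gene, per 1000000 counted reads), multiplied so that the shared genes of each library sum to 1000000. A difference is the mean log2(rescaled FPKM + 1) of the MM group minus that of the RM group, positive when higher in mouse, and folds are ratios of the group means of rescaled FPKM. The test was limma on 11285 genes with a mean rescaled FPKM of at least 1 over the 6 libraries. A gene was called higher in a species when its Benjamini-Hochberg adjusted P was under 0.05 and its log2 difference was 1 or more. By this rule, 2706 genes (24% of those tested) were higher in the MM group and 2678 (23.7%) in the RM group. An adjusted P under 0.05 was reached by 10098 genes (89.5%) and the groups did not overlap for 10152 (90%), so that neither alone sets a gene apart. Of the genes tested, 1185 had a mean under 1 in 1 of the groups and passed the filter through the other. With a mean of at least 1 required in both groups, 10100 genes were tested. Of these, 2056 were called higher in mouse and 2281 in rat. The rat gene models were shorter than those of mouse for most genes, and species, annotation and culture cannot be told apart in this design. With the FPKM as deposited, the median difference of all genes tested lay at -0.73 instead of -0.02, and the lists of IL-1 signalling (2 and 3), prostaglandin genes (3 and 4), matrix proteases (3 and 12) and chondrocyte transcription factors (0 and 5) then held fewer members called higher in mouse than in rat.

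All 5 readout genes were higher in the MM group, where 24% of the genes tested were. Mmp3 stood at 2004, 1773 and 1849 rescaled FPKM in the RM libraries and at 33969, 33939 and 33574 in the MM libraries. It was the most abundant shared transcript of the MM group and ranked 61 in the RM group, with a fold of 18.0 (log2 difference 4.17, SE 0.05, adjusted P = 1.0e-12). Ptgs2 stood at 138, 108 and 104 in rat and at 4259, 4044 and 4148 in mouse, which is a fold of 35.6 (log2 difference 5.15, SE 0.09) and a rank of 1441 against 19. Mmp13 stood at 590, 581 and 623 in rat and at 3180, 3116 and 2936 in mouse, a fold of 5.15. The smallest difference of the 5 was that of Lcn2, with 2425, 2539 and 2521 in rat and 10414, 10640 and 10413 in mouse (log2 difference 2.07, SE 0.04). No value of a rat library reached that of any mouse library for these genes.

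Nos2 differed most, and its rat values are uncertain. It stood at 1893, 2002 and 1998 rescaled FPKM in the MM libraries and at 0.934, 0.812 and 1.23 in the RM libraries (log2 difference 9.95, SE 0.07, adjusted P = 5.5e-14). The rat values rest on 55, 61 and 86 counts, against a sum of 116422 counts in the MM group. RefSeq lists a rat pseudogene of Nos2 on the same chromosome, and its row in the deposited table held 12, 17 and 16 counts in the RM libraries and 0 in each RC library. No source used here says how reads that fit both copies were counted.

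The 5 genes were far lower in untreated cells of both species, as the plot of the readout genes by library shows. Group means in the RC and MC groups were 30.9 and 4.26 rescaled FPKM for Mmp3, 73.0 and 126 for Mmp13, 9.28 and 5.83 for Lcn2, 16.7 and 6.82 for Ptgs2, and 0 and 0.0189 for Nos2. By the rule for calls, Mmp3 and Ptgs2 were higher in the RC group than in the MC group, the opposite of the order after IL-1β. The gap between the species (MM minus RM) lay further toward mouse than the gap in untreated cells (MC minus RC) for each of the 5. The shift was 6.80 on the log2 scale for Mmp3, 6.32 for Ptgs2, 2.66 for Lcn2, 1.57 for Mmp13 and 9.92 for Nos2. For Mmp3, Ptgs2 and Lcn2, whose untreated means were higher in rat, it includes the turn of the order between the species. For Nos2, which had no count in any RC library, edgeR's test of the same contrast gave 8.23 with an adjusted P of 0.965.

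**Figure D1:**
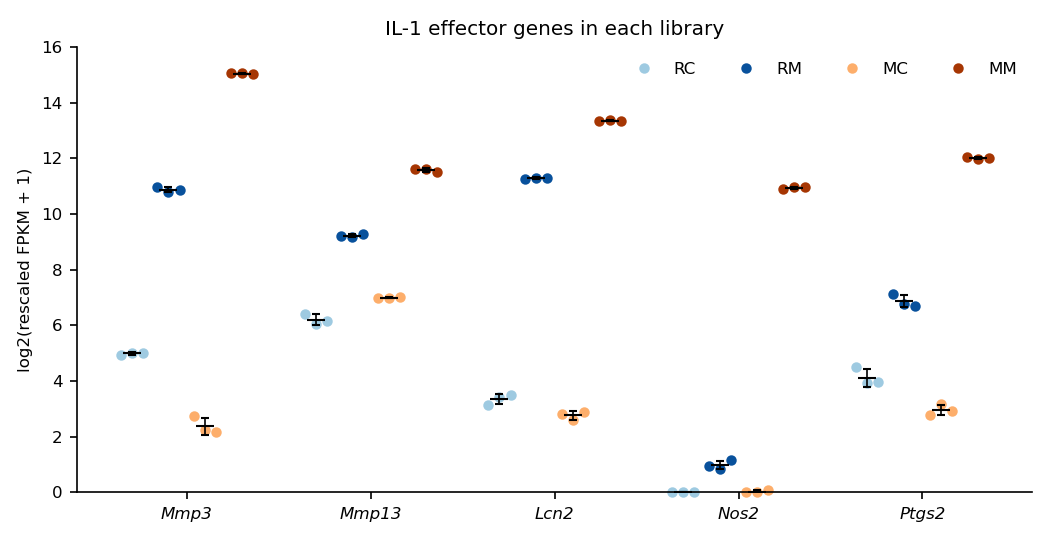
Levels of the 5 readout genes in every library, as log2(rescaled FPKM + 1), with points for libraries and bars for the mean ± SD of each group (RC, RM, MC and MM, n = 3 each). The MM libraries lie above the RM libraries for all 5 genes, and for Nos2 the RM libraries lie near 0.

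Upstream of these readouts, the genes of the IL-1 receptor and its proximal signalling differed less. Of 21 members tested, 6 were higher in the MM group, 1 in the RM group and 14 were not called. Among all genes tested, 24% were higher in the MM group and 23.7% in the RM group. The median difference was 0.25 against -0.02 for all genes tested. In untreated cells it was 0.51 against 0.30, with 3 members higher in mouse and 1 in rat. The receptor Il1r1 stood at 35.7, 37.9 and 36.6 in rat and at 45.3, 41.9 and 44.2 in mouse, a fold of 1.19 (log2 difference 0.25, SE 0.05). The groups did not overlap for Il1r1, but the difference was under the minimum for a call. For its partner Il1rap the difference was 0.19, and for the adaptor Myd88, at 28.9 to 33.9 in rat and 30.2 to 33.8 in mouse, it was 0.09 (SE 0.08, adjusted P = 0.30) with overlapping groups.

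Among the kinases, Irak1 had a difference of -0.30, Irak3 of 0.42, Mapk8 (JNK1) of -0.04 and Mapk14 (p38α) of 0.80, none of them called. Mapk8 was called higher in mouse as CPM without length (1.85) and with the trend with gene length removed (1.003). The ubiquitin ligase Traf6 was higher in the MM group at 24.3 to 29.3 against 10.3 to 11.6 (log2 difference 1.24), and so were the IκB kinase genes Chuk (1.26) and Ikbkg (1.16). Their partner Ikbkb was the member higher in the RM group, at 30.6 to 32.4 against 8.73 to 8.94 (log2 difference -1.73), with a rat gene model 0.19 times as long as that of mouse. Calls for Ikbkb and Chuk were lost when the trend with gene length was removed. Irak2 was called at 1.00, on the edge of the rule.

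Map3k7 (TAK1) and Il1rn, the receptor antagonist, differed most in this list. Map3k7 stood at 1.79, 0.786 and 0.754 in rat and at 70.4, 69.6 and 71.3 in mouse (log2 difference 5.12, SE 0.16). The rat values rest on 136 counts over the group and are uncertain, since the rat gene model and the counting of reads that fit several places were not checked. The same difference was 4.73 in untreated cells, and the test of the change in the gap gave 0.38. Il1rn stood at 0.111 to 0.375 in rat, from 13 counts, and at 10.8 to 13.3 in mouse (log2 difference 3.42), where the MC group had a mean of 128. The gap of Il1rn was thus narrower after IL-1β, by 3.30 on the log2 scale.

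Genes of the NF-κB subunits and their inhibitors were mostly higher in mouse. Of 14 members tested, 9 were called higher in the MM group and 0 in the RM group, with a median difference of 1.59. These shares were 24% and 23.7% for all genes tested. In untreated cells, 4 members were higher in mouse and 0 in rat (median 0.78, against 0.30 for all genes tested). Nfkbiz (IκBζ), a coactivator needed for Il6 and Lcn2, stood at 29.0, 29.3 and 31.5 in rat and at 579, 577 and 581 in mouse, a fold of 19.3 (log2 difference 4.23, SE 0.04). Its groups lay far apart, with an SD of 1.34 in rat and 1.94 in mouse. Rela, the p65 subunit, stood at 61.0, 65.7 and 70.3 in rat and at 259, 259 and 250 in mouse (log2 difference 1.95). Nfkb2 (2.44), Relb (2.26) and Nfkbia, the IκBα inhibitor (2.09), were also higher in mouse.

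Of the brakes on the pathway, the A20 gene Tnfaip3 had a difference of 1.67, the RNase gene Zc3h12a of 1.51 and the coregulator Bcl3 of 1.78. The differences of Nfkb1 (-0.22), Tnip1 (-0.44) and Nfkbie (-0.86) had the opposite sign and were under the minimum. With the FPKM as deposited, 5 members of the list were higher in mouse and 3 in rat.

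Of the inflammatory cytokines, 8 of 11 members tested were higher in the MM group and 1 in the RM group (median difference 2.21). These shares were 24% and 23.7% for all genes tested. Among the 8 members with a mean of at least 1 in both groups, 6 and 1 were called (median 2.86). Il6 stood at 14.9, 9.28 and 9.06 in rat and at 1066, 1056 and 985 in mouse, a fold of 93.5 (log2 difference 6.46, SE 0.15, adjusted P = 3.8e-11). Lif, a cytokine of the Il6 family, stood at 21.0, 13.1 and 16.7 in rat and at 933, 868 and 841 in mouse, a fold of 52.1. For both genes, RM1 was the highest of the rat libraries and still far under the lowest mouse library. Their means in untreated cells were 0.699 (RC) and 0.213 (MC) for Il6 and 3.74 and 3.35 for Lif.

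Csf3 (G-CSF) had a difference of 3.69, Tslp of 3.52, Il11 of 2.21 and Clcf1 of 1.61. Il1a stood at 0.0892 to 0.150 in rat, from 5 counts, and at 4.30 to 5.60 in mouse (log2 difference 2.40). Il18 was higher in mouse by 2.00 and stood at 4.12 in the MM group against 15.4 in the MC group, and its call was lost with a pseudocount of 5 (0.78), with the FPKM as deposited (0.81) and as CPM without length (0.89). The myeloid growth factor Csf2 (GM-CSF) was the cytokine higher in rat, at 6.18, 9.68 and 6.07 against 1.59, 2.16 and 0.910 (log2 difference -1.70, SE 0.21). Its call was lost with a pseudocount of 5 (-0.90) and as CPM without length (-0.90), which left 0 cytokines higher in rat. Csf2 was also left out when genes with over 10% of their mouse exon length overlapping other genes were excluded. Of the 9 cytokines then tested, 7 were higher in mouse and 0 in rat.

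Csf1 (M-CSF) stood at 381, 358 and 358 in the RM libraries and at 375, 365 and 377 in the MM libraries, with overlapping groups (log2 difference 0.03, SE 0.04, adjusted P = 0.54). Its untreated means were 176 (RC) and 687 (MC), and the gap narrowed by 1.94 on the log2 scale. Il1b and Il23a were under the minimum level for a test, and Tnf and Tnfsf11 were not among the shared symbols.

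Chemokines draw leukocytes into inflamed tissue. Of 14 members tested, 9 were higher in the MM group and 1 in the RM group (median difference 1.97), against 24% and 23.7% of all genes tested. Among the 11 members with a mean of at least 1 in both groups, 7 and 1 were called (median 1.945). Together the shared members summed to 2358 to 2979 rescaled FPKM in the RM libraries and to 14724 to 15165 in the MM libraries. Among those that bind neutrophil receptors, Cxcl1 stood at 1453, 1162 and 1258 in rat and at 7048, 6725 and 6608 in mouse (log2 difference 2.40, SE 0.07). Cxcl2 stood at 10.6, 6.39 and 9.46 in rat and at 406, 409 and 388 in mouse, a fold of 45.5. Cxcl3 differed less, at 182 to 234 in rat and 453 to 470 in mouse, a fold of 2.23. In mean rescaled FPKM, Cxcl3 lay far above Cxcl2 in rat, at 208 against 8.81, and near it in mouse, at 463 against 401.

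Among the monocyte chemokines, Ccl2 (MCP-1) stood at 935, 724 and 709 in rat and at 4538, 4467 and 4484 in mouse (log2 difference 2.52, SE 0.09), and Ccl7 had a difference of 3.96. Ccl5 (RANTES) differed most of the list, at 0.208, 1.63 and 1.05 in rat, from 17 counts, and at 295, 333 and 355 in mouse, a fold of 340 (log2 difference 7.45, SE 0.23). Cx3cl1 had a difference of 3.21. Cxcl12 was higher in the MM group by 1.95, at 48.6 to 49.2 against 11.1 to 12.7, whereas the MC group stood at 279 and the RC group at 1.30.

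Cxcl16 was the chemokine higher in rat, at 49.3, 44.6 and 41.4 against 10.5, 8.74 and 9.80 (log2 difference -2.11, SE 0.09). In untreated cells its means were 10.7 and 1.99. Without genes of overlapping mouse exons Cxcl16 was left out, and of 13 chemokines tested 9 were higher in mouse and 0 in rat. Ccl20 stood at 75.3, 59.3 and 59.2 in rat and at 40.2, 37.2 and 34.5 in mouse, with a difference of -0.77 that was under the minimum. For Cxcl10 (0.25, adjusted P = 0.14) and Cxcl14 (0.08, adjusted P = 0.31) the groups overlapped.

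**Figure D2:**
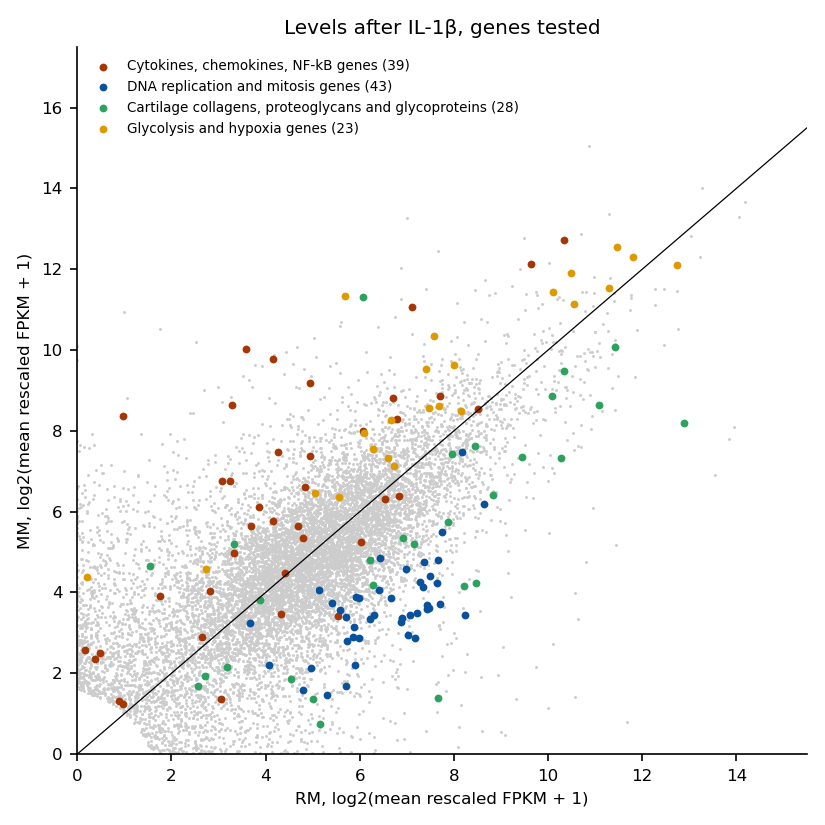
Mean level of each of the 11285 genes tested in the RM group (x axis) and the MM group (y axis), as log2(rescaled FPKM + 1), with NF-κB, cytokine and chemokine genes, replication and mitosis genes, cartilage matrix genes and glycolysis genes in colour. The inflammatory genes lie mostly above the line of equal levels and the replication and mitosis genes under it.

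Matrix proteases did not differ in one direction as a list. Of 27 members tested, 7 were higher in the MM group, 7 in the RM group and 13 were not called (median difference -0.03). These shares were near those of all genes tested (24% and 23.7%). Beside Mmp3 and Mmp13, the collagen-degrading cathepsin Ctsk was higher in mouse, at 651, 653 and 652 against 30.1, 31.2 and 29.1 (log2 difference 4.39), a difference that stood at 3.36 in untreated cells. Mmp9 (gelatinase B) was higher in rat, at 20.3, 13.6 and 16.6 against 2.46, 3.06 and 2.95 (log2 difference -2.21, SE 0.14), although in untreated cells its means were 0.455 in rat and 0.247 in mouse. Mmp19 (-2.65) and the serine protease Htra1 (-2.58) were also higher in rat. The lysosomal protease Ctsd was at 1137, 1005 and 1054 in rat and 1027, 1040 and 1060 in mouse, with overlapping groups (log2 difference -0.03, adjusted P = 0.56).

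Of 8 protease inhibitors tested, 2 were higher in the MM group and 1 in the RM group (median difference 0.72), shares near or under those of all genes tested (24% and 23.7%). Timp1, which blocks most metalloproteinases, stood at 1121, 992 and 1007 in rat and at 4428, 4729 and 4562 in mouse (log2 difference 2.14, SE 0.05). Timp2 stood at 1230 to 1294 in rat and 2317 to 2450 in mouse, a difference of 0.92 that was not called. The broad inhibitor A2m was higher in mouse by 2.90 and the serpin Serpine2 higher in rat (-1.45), the latter not when the trend with gene length was removed. The ratio of the Mmp3 mean to the Timp1 mean was thus higher in the MM group than in the RM group, since the fold was 18.0 for Mmp3 and 4.40 for Timp1.

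In prostaglandin synthesis and reception, 5 of 11 members tested were higher in the MM group and 3 in the RM group. Among all genes tested, 24% and 23.7% were, and the share of the list toward rat was near the latter. With a mean of at least 1 in both groups, 5 and 1 of 9 members were called. Ptges, which makes prostaglandin E2 from the product of Ptgs2 and was chosen after its values were seen, stood at 220, 193 and 222 in rat and at 792, 782 and 805 in mouse (log2 difference 1.90). The prostaglandin E2 receptor gene Ptger4 was higher in mouse by 2.15, at 8.98 to 9.28 against 1.03 to 1.46. Ptgds, the synthase of prostaglandin D2, was higher in rat, at 22.4, 24.4 and 32.0 against 0 counts in all MM libraries, which is at least 194-fold against a limit of 3 counts over the group, and it had this order in untreated cells too (58.6 against 0.313). Ptger1 was also higher in rat (-3.92), but 71% of its mouse exon length overlaps exons of other genes.

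Of 8 members of nitric oxide and arginine metabolism tested, 5 were higher in the MM group and 0 in the RM group (median difference 1.66). These shares were 24% and 23.7% for all genes tested. Slc7a2, a transporter that brings arginine into the cell, stood at 80.1, 85.7 and 83.6 in rat and at 1595, 1528 and 1473 in mouse, a fold of 18.4 (log2 difference 4.19, SE 0.04). Ass1, which remakes arginine from citrulline, had a difference of 3.56 and one of 4.51 in untreated cells. Arg2, which consumes arginine, was higher in mouse after IL-1β (2.02), while in untreated cells it was higher in rat, at 10.1 against 0.366.

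Acute phase proteins are known as liver-derived plasma proteins that inflamed tissues also make. Of 9 acute phase and iron genes tested, 5 were higher in the MM group and 2 in the RM group (median difference 2.07). The share toward rat was near the 23.7% of all genes tested. This list also holds iron genes that are not plasma proteins, such as Tfrc, and the readout gene Lcn2. Hp (haptoglobin) stood at 2.12, 3.02 and 2.03 in rat and at 1443, 1514 and 1443 in mouse, a fold of 615 (log2 difference 8.77, SE 0.09). Ptx3 (5.51) and Cp, the copper oxidase ceruloplasmin (4.37), were higher in mouse as well. Orm1 had the opposite order, at 50.9, 53.6 and 52.0 in rat and 2.19, 2.23 and 3.13 in mouse (log2 difference -3.93, SE 0.10), from means of 0.0639 (RC) and 0.661 (MC) in untreated cells. Lbp, chosen after its values were seen, was also higher in rat, at 208 to 235 against 61.2 to 61.4 (log2 difference -1.81).

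For complement, 6 of 10 members tested were higher in the MM group and 2 in the RM group (median difference 2.15). The split was 6 and 1 in untreated cells (median 1.89). Among all genes tested, 24% and 23.7% were higher in the MM and RM groups. Of the 10 members, 4 had a mean under 1 in 1 of the groups. Among the 6 with at least 1 in both, 3 and 2 were called (median 1.28). C4b stood at 194, 197 and 205 in mouse and rested on 7 counts in the RM group (log2 difference 7.58), with a difference of 6.23 in untreated cells. C3, chosen after its values were seen, stood at 107, 104 and 102 in rat and 688, 680 and 671 in mouse (log2 difference 2.69). Cfb had 1 count over the RM libraries and 249 over those of MM, a ratio of 929 with an exact 95% interval of 165 to 36850 that covers counting error only, and 80% of its mouse exon length overlaps other exons.

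Of 22 interferon response and antigen presentation genes tested, 11 were higher in the MM group and 3 in the RM group (median difference 1.06), against 19 and 0 in untreated cells (median 2.18) and 24% and 23.7% of all genes tested after IL-1β. The counts were 6 and 5 with the FPKM as deposited (median 0.30) and 7 and 1 with a pseudocount of 5 (median 0.43). Of the 22 genes, 7 had a mean under 1 in 1 of the groups. Among the 15 with at least 1 in both, 6 were higher in the MM group and 2 in the RM group (median 0.24). Ifit1 had means of 98.6 (MC) and 5.87 (MM), against 2 counts over the RM libraries, a ratio of MM to RM of 185 with an exact 95% interval of 50.5 to 1535 that covers counting error only. Bst2 stood at 66.8, 139 and 96.2 in the MM libraries, a wide spread for mouse libraries, and at 497 in the MC group, against 0.106 to 0.542 in the RM libraries (log2 difference 6.17, SE 0.23).

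**Figure D3:**
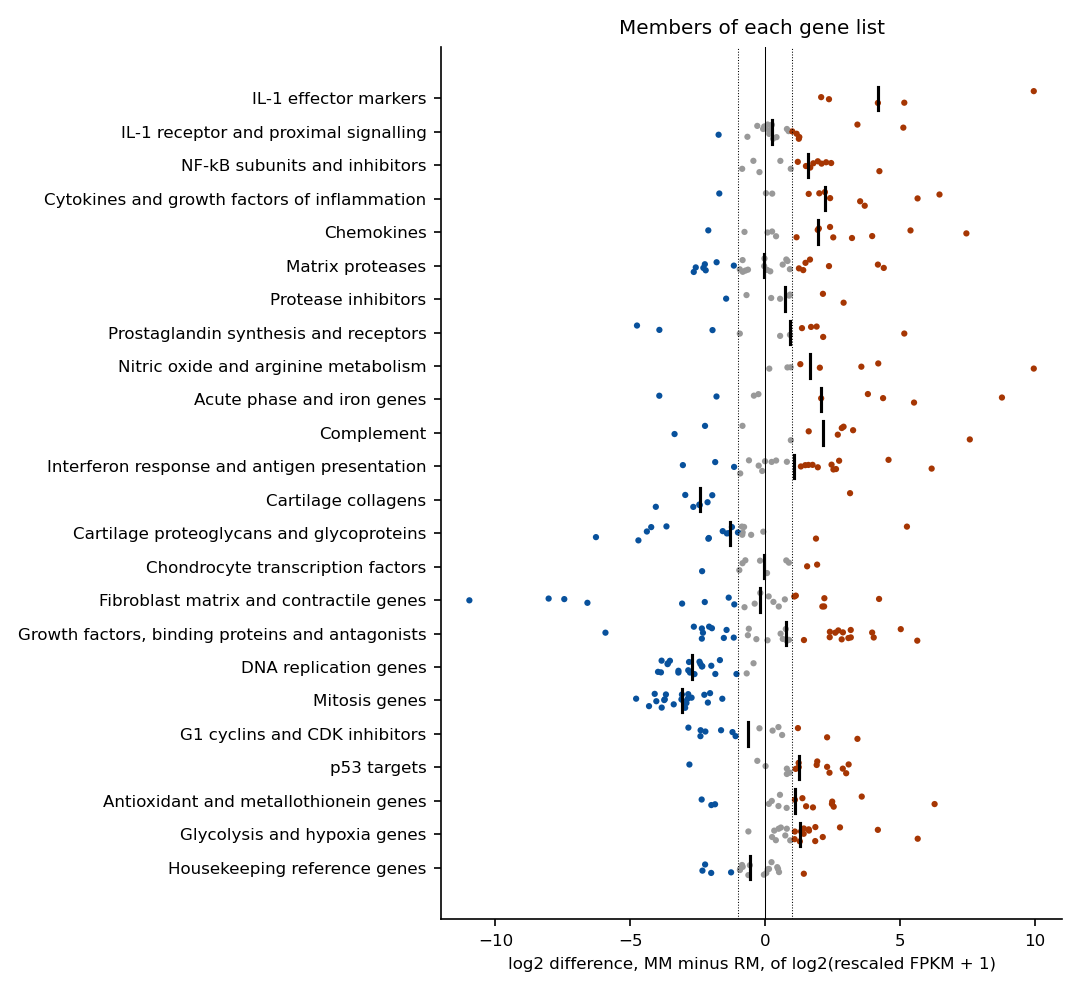
Difference between the MM and RM groups for each tested member of 24 gene lists, on the log2(rescaled FPKM + 1) scale, with red points for members called higher in mouse, blue for those higher in rat, grey for those not called, black bars for medians and dotted lines at a difference of 1 in each direction. Replication and mitosis genes lie on the rat side without exception, and the NF-κB list holds no member called higher in rat.

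Cartilage matrix genes were higher in the RM group. All 8 cartilage collagens were tested, 7 were higher in rat and 1 in mouse, with a median difference of -2.44, and 23.7% of all genes tested were higher in rat. Col2a1, the type II collagen of cartilage, stood at 2117, 2199 and 2180 in rat and at 396, 389 and 408 in mouse, a fold of 5.44 toward rat (log2 difference -2.44, SE 0.04, adjusted P = 2.3e-12). In untreated cells its means were 6580 (RC) and 6020 (MC), a difference of -0.12, so that the gap was wider after IL-1β by 2.32 on the log2 scale toward rat. The list summed to 4501 to 4611 in the RM libraries and 763 to 785 in the MM libraries, and to 10579 to 12427 and 8644 to 8964 in the untreated RC and MC libraries.

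Type IX collagen, which coats type II fibrils, was higher in rat for all of its chains, with differences of -4.06 for Col9a1, -2.14 for Col9a2 and -2.43 for Col9a3. Col11a1, which sets the width of the fibrils, stood at 1314, 1259 and 1168 in rat and 159, 158 and 159 in mouse (log2 difference -2.97). Col10a1, the collagen of hypertrophic chondrocytes, was the exception, at 1.36 to 2.78 in rat and 22.7 to 25.4 in mouse (log2 difference 3.14), with a difference of 4.68 in untreated cells.

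Of 20 cartilage proteoglycans and glycoproteins tested, 12 were higher in the RM group, 2 in the MM group and 6 were not called (median difference -1.29, against -0.06 in untreated cells). Mgp, an inhibitor of calcification, stood at 7627, 7541 and 7594 in rat and at 301, 277 and 294 in mouse, a fold of 26.1 toward rat and a rank of 9 against 526 (log2 difference -4.70, SE 0.04). Ucma, a small secreted protein of cartilage, stood at 216, 195 and 190 in rat and 1.68, 1.47 and 1.65 in mouse (log2 difference -6.27, SE 0.07), from means of 559 (RC) and 291 (MC). Matn3 had a difference of -4.39 and one of 0.12 in untreated cells. Acan (aggrecan), chosen after its values were seen, stood at 325, 354 and 376 in rat and 15.7, 17.4 and 20.6 in mouse (log2 difference -4.23, SE 0.09). The small proteoglycans Lum (-0.87) and Prelp (-0.84) were not called.

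Dcn (decorin) went the other way, at 63.2, 72.4 and 63.3 in rat and 2585, 2553 and 2524 in mouse (log2 difference 5.25, SE 0.05), with a rat gene model 0.32 times as long as that of mouse. Untreated means were 102 (MC) and 13.7 (RC).

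Chondrocyte transcription factors showed no such split, with 2 of 10 higher in the MM group, 1 in the RM group and a median difference of -0.06. Both shares lay under those of all genes tested (24% and 23.7%). Sox9, the factor that defines the lineage, stood at 38.9, 43.2 and 42.6 in rat and 67.3, 70.7 and 78.5 in mouse, a difference of 0.78 that was not called. Mef2c was higher in rat (-2.34), Foxc1 (1.55) and Runx3 (1.92) higher in mouse.

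Of 21 fibroblast matrix and contractile genes tested, 6 were higher in the MM group and 8 in the RM group (median difference -0.18). Among all genes tested, 24% and 23.7% were called in these directions. Col1a1 stood at 2530, 2712 and 2852 in rat and at 2354, 2391 and 2369 in mouse, a difference of -0.18. Its partner chain Col1a2 stood at 36.6, 59.8 and 35.8 in rat and at 805, 814 and 825 in mouse (log2 difference 4.22), and at 81.4 and 4304 in the RC and MC groups. Since both chains form 1 protein and the rat Col1a2 model is 0.36 times as long as that of mouse, the rat values of Col1a2 are uncertain. Thy1, a marker of fibroblast-like cells, was higher in rat, at 1567, 1466 and 1511 against 16.9, 14.1 and 13.4 (log2 difference -6.59), as was the elastic fibre gene Eln (-7.45), and both were so in untreated cells (-4.88 and -3.83). S100a4 (-10.97) and Tagln (-8.03) were higher in rat too, but 52% and 68% of their mouse exon length overlaps other exons.

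Growth factors, their binding proteins and antagonists held 14 members higher in the MM group and 10 in the RM group of 33 tested (median difference 0.76). Among all genes tested, 24% and 23.7% were called in these directions. In untreated cells, 17 members were higher in mouse and 5 in rat (median 1.04). Igfbp5, which binds insulin-like growth factors, stood at 22.6, 18.0 and 19.4 in rat and 681, 683 and 667 in mouse (log2 difference 5.02), and Dkk3 had a difference of 5.63. Both differences were also present in untreated cells (4.58 and 7.70). Igf2 was higher in rat (-5.92), with 65% of its mouse exon length overlapping other exons.

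The genes of cell division differed most uniformly. Of 22 DNA replication genes tested, 20 were higher in rat (RM group) and 0 in mouse (median difference -2.71), and of 21 mitosis genes tested, all 21 were higher in the RM group (median difference -3.09), where 23.7% of all genes tested were. In untreated cells, 4 and 1 of the replication genes and 2 and 1 of the mitosis genes were higher in rat and mouse, with medians of -0.07 and 0.07. The mitosis genes summed to 2503 to 2715 rescaled FPKM in the RM libraries and 270 to 290 in the MM libraries, and to 1469 to 1629 and 1448 to 1532 in the RC and MC libraries. The untreated libraries of the species lay close together, the RM libraries above and the MM libraries under them. These counts changed by at most 2 members under another scaling, under CPM without length and with the length trend removed.

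Cdk1, the kinase that starts mitosis, stood at 290, 308 and 301 in rat and between 9.52 and 10.1 in mouse, a fold of 30.3 toward rat (log2 difference -4.79, SE 0.05, adjusted P = 2.8e-13). Mki67 (Ki-67), chosen after its values were seen, stood at 171, 187 and 180 in rat and 22.5, 18.4 and 19.9 in mouse (log2 difference -3.09), from means of 93.4 (RC) and 129 (MC). Cdca8 (-4.31), Birc5 (-4.10) and Ttk (-4.04), which attach chromosomes to the spindle and check the attachment, had differences close to that of Cdk1.

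Mcm5, a subunit of the helicase that opens DNA for replication, stood at 116, 117 and 123 in rat and 9.15, 8.73 and 10.2 in mouse (log2 difference -3.53, SE 0.06), from means of 61.9 (RC) and 56.2 (MC). Mcm2 (-3.61) and Mcm6 (-3.84) of the same helicase, the loading factor Cdc6 (-3.87), the nucleotide enzyme Rrm1 (-3.97) and the nuclear lamina gene Lmnb1 (-3.62) were higher in rat to a like extent. Pcna, the sliding clamp, differed less, at 275, 309 and 277 in rat and 180, 172 and 180 in mouse, a difference of -0.69 that was not called. Cdc45 (-0.43) was the other replication gene without a call.

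Of 14 G1 cyclins and CDK inhibitors tested, 7 were higher in rat and 3 in mouse (median difference -0.66). The share toward mouse was near the 24% of all genes tested, of which 23.7% were higher in rat. Without division by gene length, 3 were higher in rat and 2 in mouse (median 0.24). With the length trend removed, the counts were 5 and 3 (median -0.08). Without genes of overlapping exons, they were 4 and 3 of 10 (median 0.03). Ccnd1 (cyclin D1) stood at 500, 439 and 475 in rat and 89.0, 87.1 and 88.7 in mouse (log2 difference -2.40, SE 0.05). Cdkn1a (p21), which blocks CDKs and was chosen after its values were seen, stood at 279, 214 and 235 in rat and 1183, 1178 and 1194 in mouse (log2 difference 2.29, SE 0.08). Its means in untreated cells were 238 (RC) and 251 (MC), so that the RM libraries lay at the level of untreated cells and the MM libraries above it. Cdkn2b (3.42) was also higher in mouse, with a rat gene model 4.06 times as long as that of mouse, but its difference without division by length was 0.63 and not called, and Cdkn1c (-2.40) higher in rat.

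Of 16 p53 targets tested, 10 were higher in the MM group and 1 in the RM group (median difference 1.24), against 5 and 2 in untreated cells (0.73). For all genes tested, the shares after IL-1β were 24% and 23.7%. Plk2 stood at 45.5, 42.9 and 45.3 in rat and 379, 364 and 347 in mouse (log2 difference 3.00), and Perp (3.09) and Eda2r (2.87) were higher in mouse as well. Gadd45a, which arrests damaged cells, was the member higher in rat, at 224, 229 and 226 against 34.8, 29.5 and 30.3 (log2 difference -2.81). Its difference in untreated cells was -2.73. Without genes of overlapping mouse exons Gadd45a was left out, and of 14 p53 targets tested 9 were higher in mouse and 0 in rat.

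**Figure D4:**
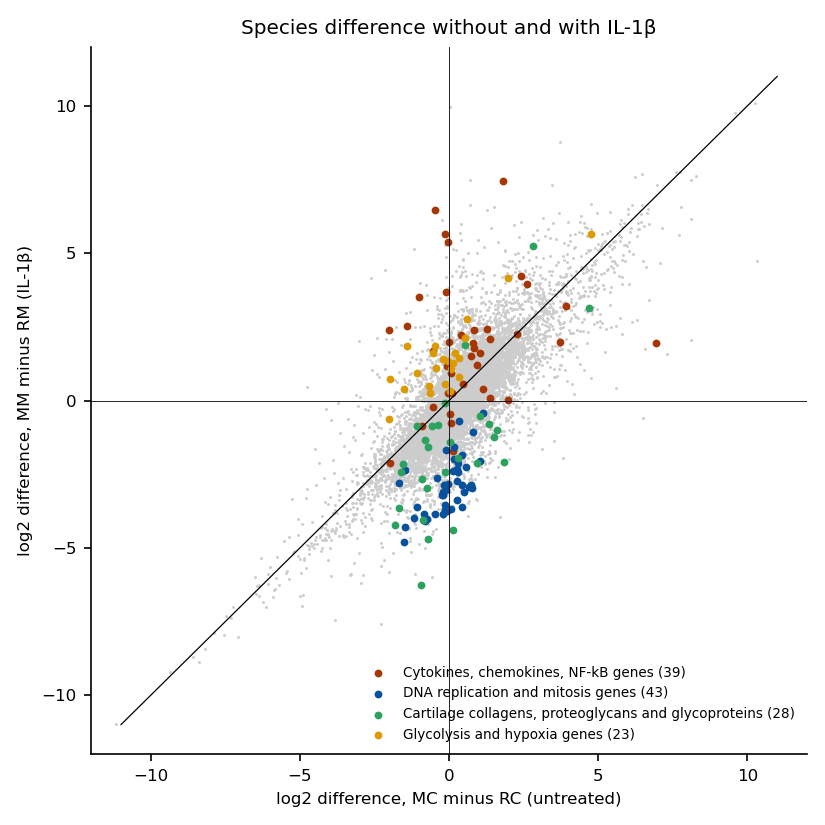
Difference between mouse and rat in untreated cells (MC minus RC, x axis) and after IL-1β (MM minus RM, y axis) for the 11285 genes tested, on the log2(rescaled FPKM + 1) scale, with the gene groups in the colours of the plot of levels and a line where both are equal. Replication and mitosis genes lie near 0 on the x axis and under the line, and most NF-κB, cytokine and chemokine genes lie above it.

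Genes of glycolysis and hypoxia were higher in the MM group for 14 of 23 members tested and in the RM group for 0. The median difference was 1.28, against -0.14 in untreated cells. For all genes tested, 24% were higher in the MM group and 23.7% in the RM group. Slc2a1 (GLUT1), which carries glucose into the cell, stood at 195, 181 and 198 in rat and 1301, 1299 and 1327 in mouse (log2 difference 2.77, SE 0.04), from means of 95.9 (RC) and 145 (MC). The lactate exporter Slc16a3 had a difference of 2.13 and Slc2a3 one of 4.17, the latter from 18 counts in the RM group. The list summed to 20956 to 22048 in rat and 34587 to 35428 in mouse. With the FPKM as deposited, 4 members were higher in mouse and 1 in rat.

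Several glycolytic genes have rat pseudogenes in RefSeq, among them Gapdh (81), Eno1 (31), Ldha (30), Pkm (19), Pgk1 (8) and Tpi1 (3). For Tpi1, whose rat values were 51.8, 47.7 and 51.5 against 2522, 2590 and 2607 in mouse (log2 difference 5.65), the difference was 4.77 in untreated cells. Gapdh stood at 6766, 6623 and 7135 in rat and 4354, 4507 and 4436 in mouse, a difference of -0.63.

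Of 17 antioxidant and metallothionein genes tested, 9 were higher in the MM group and 3 in the RM group (median difference 1.10, against -0.79 in untreated cells). The share toward rat was near or under the 23.7% of all genes tested, of which 24% were higher in mouse. Mt1, which binds zinc and copper, stood at 124, 128 and 129 in rat and 9716, 10123 and 9890 in mouse, where it ranked 6 among the shared genes (log2 difference 6.28, SE 0.04), and RefSeq lists 3 rat pseudogenes of it. Hmox1, which breaks down haem, stood at 502, 437 and 474 in rat and 2826, 2773 and 2602 in mouse (log2 difference 2.54), although the RC mean of 634 was above the MC mean of 352. The cystine carrier Slc7a11 (3.58) and the extracellular superoxide dismutase Sod3 (2.48) were higher in mouse, and the quinone reductase Nqo1 had overlapping groups (0.13, adjusted P = 0.087).

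The most abundant shared transcripts differed between the species. Of the 10 highest genes of each group, 4 were in both lists: mt-Co1, Fn1, Spp1 and mt-Nd1. Spp1 (osteopontin) stood at 11046, 9681 and 8873 in rat and 16680, 16651 and 16117 in mouse, a difference of 0.75 that was not called. The other genes in the rat list were mt-Co2, mt-Co3, mt-Atp6, Eef1a1, Mgp and Actb, and those in the mouse list were Mmp3, Lcn2, Mt1, Lox, Bsg and Cxcl1, that is, a protease, an iron-carrier binder, a metallothionein, a collagen crosslinker, a metalloproteinase inducer and a chemokine. The mitochondrial genes mt-Co2 (-5.85), mt-Co3 (-6.02) and mt-Atp6 (-6.64) differed far more than mt-Co1 (-0.53) and mt-Nd1 (-0.19). Whether the counting of reads on these genes was alike in the species was not tested. Of the 100 highest genes of each group, 41 were in both, against 56 for the untreated RC and MC groups.

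Across the 11285 genes tested, the rank correlation of levels between an RM and an MM library was 0.672 to 0.678 over the 9 pairs, and 0.752 to 0.762 between RC and MC libraries. Within a species, treated and untreated libraries had rank correlations of 0.962 to 0.973 in rat and 0.861 to 0.863 in mouse. The untreated pairs were thus closer to each other than the treated pairs, and the MM libraries further from their controls than the RM libraries. These are descriptions over genes that share libraries and gene models.

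The largest differences, among genes with at least 20 rescaled FPKM in the higher group and gene lengths within 2-fold, held several genes that differed as much without IL-1β. Toward mouse they were Nos2, Hp, Ndufa1, Ephx1, Srp14, C4b, S100a8, Man2b2, Ccl5 and Timm8b. Ndufa1, a subunit of respiratory complex I, had a difference of 7.77 and one of 7.60 in untreated cells, and Srp14, of the signal recognition particle, 7.63 and 8.27. Their rat values rest on 7 and 6 counts in the RM group, RefSeq lists 1 rat pseudogene of Ndufa1, and whether these counts give the level of the genes in rat was not tested. S100a8, an alarmin known from neutrophils, stood at 200, 199 and 185 in mouse and had 1 count in the RM group, a ratio of 2244 with an exact 95% interval of 402 to 88664 that covers counting error only, whereas its difference in untreated cells was 0.70.

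Toward rat the largest were S100a4, Nme2, mt-Atp8, Tagln, Ilk, Arsi, Fdps, Gng10, mt-Atp6 and Nnt. Arsi, an arylsulfatase with no overlapping mouse exon, stood at 854, 875 and 857 in rat and 3.93, 2.69 and 3.83 in mouse (log2 difference -7.60, SE 0.10), with a difference of -2.27 in untreated cells. For Nme2, Ilk, Gng10 and Nnt, 48.9%, 89.7%, 72.0% and 47.4% of the mouse exon length overlaps exons of other genes. The mitochondrial genes mt-Atp8 (-8.70) and mt-Atp6 (-6.64) overlap each other in the mouse genome and differed as much in untreated cells (-8.57 and -6.38).

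Of the 2706 genes higher in the MM group, 1926 (71.2%, and 64.2% of the 2999 higher in MC) were also higher in untreated mouse cells, 29 were higher in untreated rat cells and 751 were not called there. Of the 2678 genes higher in the RM group, 1246 (46.5%, and 85.8% of the 1452 higher in RC) were also higher in untreated rat cells, 76 had the opposite order and 1356 were not called. In untreated cells, 26.6% of the genes tested were higher in mouse and 12.9% in rat. After quantile normalization, which keeps only ranks within a library, the shares carried over were 56.3% toward mouse and 61.3% toward rat, so that their order turned. The gap after IL-1β differed from that in untreated cells by at least 1 toward mouse for 862 genes (7.64%) and toward rat for 2011 (17.8%), around a median shift of -0.34 that was -0.03 after quantile normalization.

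Gene length and overlap moved with the differences. The implied rat gene model was shorter than that of mouse for 91.0% of genes (median ratio 0.623), and the rank correlation of the difference with the length ratio was 0.310 over 11253 genes. The median difference was -0.92 for the 1027 genes whose rat models were shortest relative to mouse and 0.73 for the 900 with a longer rat model, against an SD of 1.73 over all genes. Among the 157 genes with over 50% of their mouse exon length shared with other genes, 121 (77.1%) had higher and 10 lower levels in rat by the rule for calls. Among the 4604 genes with lengths within 1.5-fold, 1463 (31.8%) were higher in the MM group and 668 (14.5%) in the RM group. Removal of the length trend was an alternative chosen after seeing the data. Of the genes named here, Ikbkb, Chuk, Serpine2, Irak2 and Zc3h12a lost their calls with it. Timp2, Lum, Prelp, Cdc45, mt-Co1 and Mapk8 gained one. As CPM without length, the same 5 lost their calls, as did Cdkn2b, Tbp, Il18 and Csf2. Timp2, Lum, Prelp, Cdc45, Il1rap, Fn1, mt-Co1, mt-Nd1 and Mapk8 gained one. With the FPKM as deposited, the calls toward mouse of Traf6, Ikbkg, Chuk, Irak2, Tnfaip3, Bcl3, Zc3h12a, Clcf1, Il18, Cxcl3, Foxc1, Runx3 and Pgk1 were lost, and Irak1, Tnip1, Nfkb1, Nfkbie, Ccl20, Lum, Prelp, Col1a1, Pcna, Cdc45, Gapdh, Fn1, Eef1a1, mt-Co1 and mt-Nd1 were called higher in rat. With a pseudocount of 5, Il1a, Il18, Irak2 and Csf2 lost their calls.

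**Figure D5:**
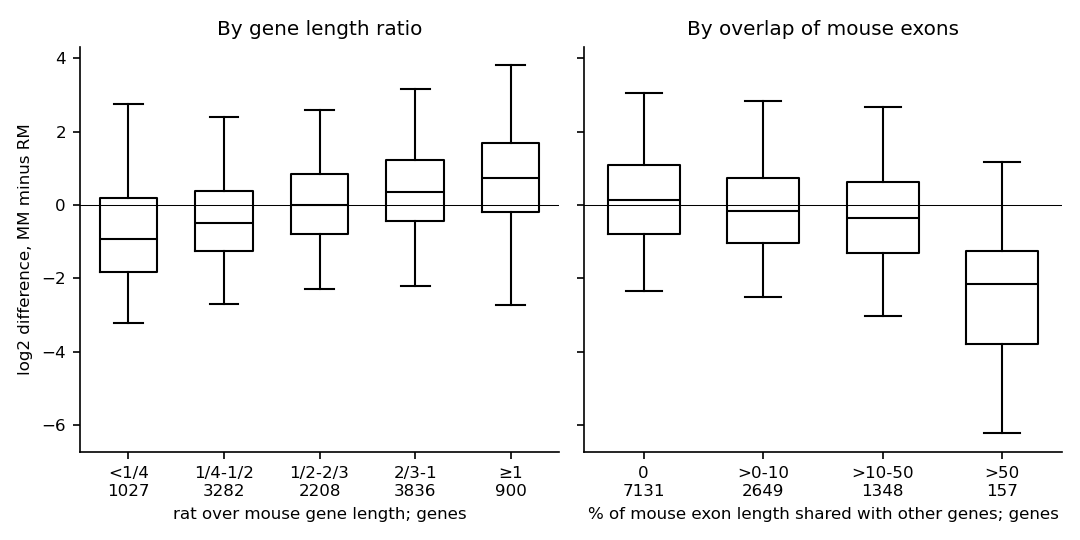
Difference between the MM and RM groups on the log2(rescaled FPKM + 1) scale by the ratio of rat to mouse gene length (left, 1027, 3282, 2208, 3836 and 900 genes) and by the share of mouse exon length that overlaps other genes (right, 7131, 2649, 1348 and 157 genes), with boxes for quartiles, centre lines for medians and whiskers from the 5th to the 95th percentile. The medians run from -0.92 to 0.73 with the length ratio, and the median is -2.16 for genes with over 50% overlap.

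Of 19 housekeeping genes tested, 1 was higher in the MM group and 4 in the RM group (median difference -0.57). The share toward rat was near the 23.7% of all genes tested, and the share toward mouse was under their 24%. The counts were 0 and 10 with the FPKM as deposited (median -1.45), and among the 5 members of similar length they were 1 and 0, with a median of the opposite sign (0.445). Actb stood at 6976, 6620 and 7181 in rat and 1461, 1495 and 1470 in mouse (log2 difference -2.23), and Tbp (-2.33) and Tubb5, at 1829 to 2018 against 470 to 476, were higher in rat too. The member higher in mouse was Pgk1 (1.43), an enzyme of glycolysis.

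The cells held chondrocyte transcripts in both groups, though fewer in mouse. The 9 chondrocyte markers summed to 3384 to 3525 rescaled FPKM in the RM libraries and 756 to 809 in the MM libraries, 7 were higher in rat, and none was at 0. In bulk samples, fewer cells of a type and less RNA per cell cannot be told apart. Of 9 shared macrophage and leukocyte markers, 5 were tested, 2 were higher in rat and 3 were not called, with summed levels of 74.0 to 82.7 in rat and 138 to 143 in mouse. Most of these sums came from Cd14 and Cd68, while Ptprc (CD45) was at 0.0704 to 0.151 in the RM libraries and at 0, 0 and 0.0133 in the MM libraries, and Adgre1 (F4/80) was at 0 in all MM libraries. None of the 6 shared endothelial markers reached the minimum level, and their sums were 0.391 to 0.464 in rat and 3.52 to 3.61 in mouse. Skeletal muscle, osteoblast and neural markers each summed to at most 17.4 in any of the 6 libraries, with both muscle markers tested higher in rat and both neural markers tested higher in mouse. The adipocyte markers summed to 102 to 158 in rat and 25.2 to 29.6 in mouse, nearly all from Fabp4, with Adipoq under 0.15 in rat. Of the 2 adipocyte markers tested, Fabp4 was called higher in rat and Adipoq higher in mouse. The part of these transcripts in the differences between the species was not tested.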

How the data were processed

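RNA-seq libraries of rat and mouse articular chondrocytes were analysed, 3 per group, grouped by the treatment labels. Per the labels, the authors aligned reads with HISAT2 and counted them with HTSeq 0.11.2 on Rnor_6.0 and GRCm38, and deposited raw counts per Ensembl gene. The deposited FPKM equal those counts divided by 1 length per gene and the column total, within 0.1% for all 129004 mouse and 97552 rat values checked. No source used here gives annotation releases, the strand setting or the treatment of multi-mapped reads.

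Genes were matched by symbol (14402, not checked as orthologs) with, of duplicates (5 mouse and 46 rat symbols), the ID of most counts. FPKM were rescaled to sum to 1000000 over shared genes in each library. Genes with a mean of at least 1 over the 6 libraries were tested with limma 3.58.1 (lmFit, eBayes with trend, two-sided) in R 4.3.3 on log2(rescaled FPKM + 1), with Benjamini-Hochberg adjustment over all 11285. MC against RC and the contrast (MM−RM)−(MC−RC) were fitted alike. A gene with 0 counts in a group was set against 3 counts over the group. Where a gene had 1 to 3 counts in a group, a ratio with an exact 95% interval that covers counting error only took the place of its fold. Alternatives were other scalings, filters, pseudocounts and length treatments, edgeR 4.0.16 and DESeq2 1.42.0 with length offsets, and leaving out each library. Length trend removal and exclusion of overlapping exons (GENCODE M21) were chosen after seeing the data. The tests were run on simulated counts that had equal levels in the species apart from set changes. These counts held no differences in annotation or in the counting of multi-mapped reads, so that the simulation does not cover them.

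Named genes were the 5 readouts, the 10 most abundant per group, the 10 largest called differences per direction (mean at least 20, no overlap, lengths within 2-fold), per list the 4 largest called and the 2 most abundant with a difference under 1, genes the study names, and any member of the IL-1, NF-κB, cytokine and chemokine lists. The comparison, its genes and lists were chosen with earlier results of these data known. Replicate numbers did not pair the samples: deviations of MM and RM libraries of the same number had correlations of -0.019 to 0.0226.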

Additional observations from a re-analysis of the deposited data

Results flagged for a closer look

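For the 5 readout genes, the gap between mouse and rat after IL-1β differed from the gap in untreated cells by the test of that difference in limma (3 libraries in each of 4 groups). The change in the gap was 6.796 on the log2 scale for Mmp3, 1.569 for Mmp13, 2.658 for Lcn2, 9.924 for Nos2 and 6.315 for Ptgs2, each toward mouse. It was flagged because the species contrast itself differed between treated and untreated cells.

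Genes outside the shared set took 15.2% of the FPKM in the MM libraries on average (14.96% to 15.34%), against 10.24% in the MC libraries and 8.23% in the RM libraries. They do not enter any comparison between the species. The most abundant of them in the MM group were Fth1, with a mean of 8451 FPKM, Saa3, with 6701 FPKM against 0.0523 in the MC group, and Cxcl5, with 3752 against 10.8. Saa3, an acute phase protein, and Cxcl5, a neutrophil chemokine, belong to groups that the report describes by their shared members.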

How the results depend on the processing

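The main counts were 2706 genes higher in the MM group and 2678 in the RM group. They were 2904 and 2819 with edgeR, 2958 and 2775 with DESeq2, 2631 and 2744 after quantile normalization and 2445 and 2128 without overlapping exons. With FPKM as deposited they were 1143 and 4644, on a scale whose median difference was -0.73 because the shared genes summed to fewer FPKM in mouse libraries. Among genes of similar length they were 1463 and 668, with no minimum difference 4970 and 5128, and with a minimum of 2 they were 1174 and 1028. Leaving out 1 library gave 2697 to 2739 and 2673 to 2695. For the change in the gap, 2011 genes toward rat became 1264 with quantile normalization and 1339 with TMM, and 862 toward mouse became 1271 and 1175. The share of calls toward mouse moved from 30% to 50.14% and 46.74%. In untreated cells, 2999 higher in mouse became 1988 with quantile normalization, and the share toward mouse moved from 67.38% to 47.74%. With the replicate block, counts were 2706 and 2678, 864 and 2010 for the gap, and 3000 and 1452 in untreated cells, and the block changed no call given in the report. Mapk8, not called at -0.04, reached 1.852 as CPM without length and 1.003 with the length trend removed, its rat model being far shorter. Irak2 lost its call in 4 of the 6 fits without a library (0.9234 to 0.9977). The cause of the other changes was not tested.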

Other observations

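Further genes, chosen after their values were seen, differed by under 1 on the log2 scale between untreated rat and mouse cells and by far more after IL-1β. Il13ra2, a decoy receptor for interleukin 13, stood at 8.55, 7.41 and 4.95 rescaled FPKM in the RM libraries and at 544, 567 and 521 in the MM libraries. Camp, an antimicrobial peptide known from neutrophils as S100a8 is, rested on 7 counts in the RM group and stood at 133, 132 and 123 in the MM libraries. Pvalb, a calcium buffer of muscle and nerve cells, had the opposite order, at 59.6, 54.2 and 75.5 in rat and at 0 counts in all MM libraries, which is at least 294-fold against a limit of 3 counts over the group. Since these genes were picked for the size of their differences, no test is read from them.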
